A study of Rattus norvegicus with 2 samples.

Results

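The receptors through which the hypothalamus reads energy state were examined in male Wistar rats that had been tickled. The set held 8 genes chosen by name: the leptin receptor Lepr, the insulin receptor Insr, the melanocortin receptors Mc3r and Mc4r, the neuropeptide Y receptors Npy1r, Npy2r and Npy5r, and the ghrelin receptor Ghsr. All probes whose annotated symbol was one of these names were taken. They numbered 9 among 44290 probes on the array and covered 7 of the 8 genes. Values were found for 8 of the 9 probes, each on both arrays, so 7 receptors were measured among 12092 genes with a value on at least 1 array. No probe was annotated to Npy1r, the neighbour of Npy5r in the GRCr8 annotation, and it was not analysed here. One of 2 Lepr probes was empty on both arrays.

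The rats entered the study at 21 days of age, after weaning, and lived singly behind screens. They were tickled, lightly touched or left without a stimulus over 4 weeks, with 4 animals per condition. A daily session on weekdays held 2 sets of 4 cycles, each with 15 s of rest and then 15 s of contact. Tickling imitates rough play and evokes ultrasonic calls near 50 kHz. RNA from the hypothalamus of tickled rats, labelled with Cy5, was set against Cy3-labelled RNA of rats without stimulus on 1 array (the no-stimulus array) and of lightly touched rats on another (the light-touch array). The dyes were not swapped, so an effect of the dye on a probe and a difference between conditions cannot be told apart. No allele, transgene or drug is given for any group. Nothing states whether animals were pooled or whether both arrays carried one and the same tickled RNA.

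Leptin from fat and insulin from the pancreas act on neurons of the arcuate nucleus. There, one cell group makes pro-opiomelanocortin (Pomc), whose melanocortin products act on Mc3r and Mc4r and restrain feeding. Another group makes neuropeptide Y (Npy) and agouti-related peptide (Agrp), the first acting on the Npy receptors and the second blocking melanocortin receptors, which promotes feeding. Ghrelin from the stomach excites this second group through Ghsr.

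Each value was the deposited ratio of the 2 dyes, read here as tickled over control. This direction is likely but not stated, and with the opposite numerator each ratio above 1 would lie below 1 and the reverse. With 1 array per comparison no test between conditions was possible, and no value could be set against variation between animals. The ratios hold no signal level, so brightness of a probe was not known. Where a gene had several probes, these scattered around their mean with an SD of 0.18 log2 units (1.13-fold) in either comparison. Over all genes the SD was 0.20 log2 units against no stimulus and 0.22 against light touch. In bulk tissue, fewer cells of a type and less RNA per cell cannot be told apart. The hypothalamic label was looked at through 12 marker genes of the arcuate and ventromedial nuclei, of which 11 were measured against no stimulus and 10 against light touch, Pomc, Agrp, Npy and Ghrh among them on both.

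Against no stimulus, a comparison of tickled animals with animals left alone, the receptors lay on both sides of 1. The receptors for leptin and insulin had the highest ratios, at 1.52 for Lepr and 1.56 for Insr, and Ghsr followed at 1.38. Npy2r, a mainly presynaptic receptor that inhibits Npy release, was lowest at 0.72. Mc4r, the main receptor through which melanocortins reduce feeding, had a ratio of 0.74. Npy5r, a feeding-promoting Npy receptor, lay at 0.97, and Mc3r, which is also carried by Agrp and Pomc neurons, at 1.12. With the opposite numerator the order turns round, with Npy2r at 1.39 and Mc4r at 1.35 highest and Lepr at 0.66 and Insr at 0.64 lowest. Of the 7 receptors, 4 lay above 1, where 51.8% of all genes did, and the median over the 7 was 0.16 log2 units against 0.01 over all genes. With only the middle 80% of probe numbers, which leaves out Insr and Ghsr, 2 of the other 5 receptors lay above 1 and the median was -0.0439.

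Lepr and Insr were the 2 receptors that reached a ratio of 1.5 here, a size met by 1.62% of all genes. Within these, 0.32% of all genes reached 2, which no receptor did. At the low end 0.362% of genes had a ratio of 1/1.5 or less and 0.101% a ratio of 0.5 or less, and 0 receptors were among them. In the ranking of 11881 genes 149 other genes were as high as Insr, 173 as high as Lepr and 314 as high as Ghsr. Conversely, 101 were as low as Npy2r and 134 as low as Mc4r. Ordered by size, Npy2r and Mc4r were 0.04 log2 units apart and Lepr and Insr 0.04, within the 0.26 expected as the SD of a difference of 2 probes. Between Mc4r and Npy5r the gap was 0.39, and between Mc3r and Ghsr 0.30. The gap between Mc3r and Ghsr depends on the probe. By 1 of its 2 probes alone Ghsr stood at 1.08, below Mc3r at 1.12. Neither Lepr nor Insr kept a ratio of 1.5 when the local median (the median over 500 measured probes nearest in probe number) was subtracted, after which they stood at 1.49 and 1.47.

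Against light touch, a comparison that keeps contact with a hand and changes its kind, Ghsr had the highest ratio of the 7, at 1.97, and Insr the next, at 1.76. This order depends on the probe, since Ghsr by its first probe alone stood at 1.46, below Insr. Mc3r had 1.32 and Npy5r 1.10. Mc4r, Lepr and Npy2r were close to 1, at 1.05, 1.01 and 0.93. Above 1 lay 6 of the 7 receptors, where 51.3% of all genes did, and their median was 0.14 log2 units against 0.01 over all genes.

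Ghsr and Insr were the 2 receptors that reached 1.5 against light touch, as did 1.57% of genes, and 0.349% of genes reached 2. No receptor joined the 0.928% of genes with a ratio of 1/1.5 or less or the 0.221% at 0.5 or less. Here 42 other genes were as high as Ghsr and 73 as high as Insr, while 405 were as high as Mc3r. From Npy2r up to Npy5r, neighbouring receptors were at most 0.12 log2 units apart, within the 0.25 expected as the SD of a difference of 2 probes. Npy5r and Mc3r differed by 0.26 and Mc3r and Insr by 0.42, whereas Insr and Ghsr differed by 0.17. With the local median subtracted Ghsr stood at 1.88 and Insr at 1.71.

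**Figure D1:**
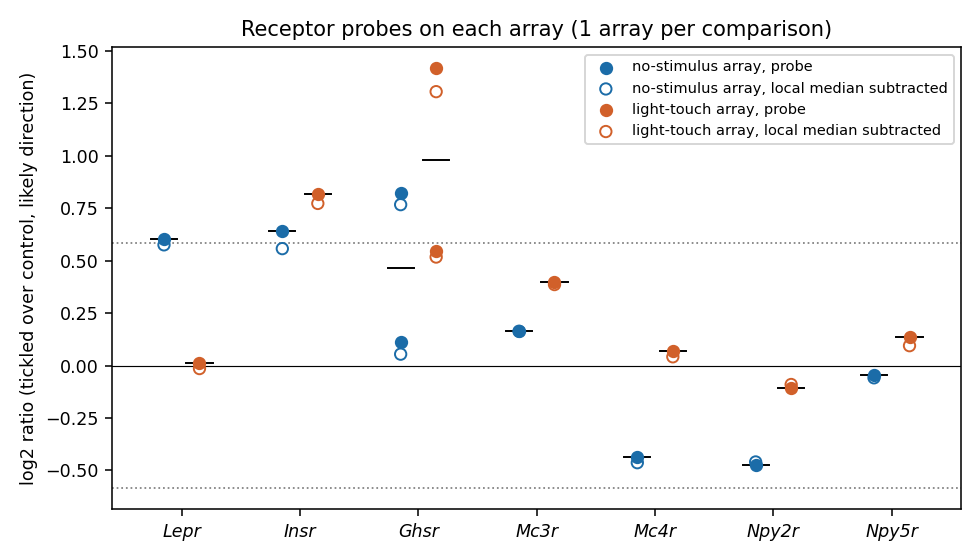
Each filled point is the log2 ratio of 1 probe on the no-stimulus (blue) or light-touch (orange) array, open points are the same probes with the local median subtracted, black bars are the median of a gene's probes and dotted lines mark 1.5-fold. The 2 Ghsr probes lie apart on either array, and Mc4r and Npy2r lie below 0 on the no-stimulus array and near 0 on the light-touch array.

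Ghsr was the 1 receptor measured by more than 1 probe, and its probes disagreed in size. They gave ratios of 1.08 and 1.77 against no stimulus and of 1.46 and 2.67 against light touch. The second probe was 1.64 times the first on one array and 1.83 times on the other. All 4 values lay above 1, and the first probe alone did not reach 1.5 on either array. Which parts of the transcript the probes cover is not given in the sources used here, so the full-length and truncated forms of Ghsr could not be assigned, nor the long and short splice forms of Lepr.

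The probes of Ghsr and Insr also lay in a part of the probe numbering where high ratios were common. Both Ghsr probes and the Insr probe were among the lowest or highest 10% of probe numbers, together 20%, where 5.51% of probes on the no-stimulus array reached 1.5, against 1.23% of the middle 80%. On the light-touch array these shares were 5.34% and 1.13%. Among the 500 measured probes around Insr, 6.41% of the others were as high as Insr against no stimulus and 2.40% against light touch. Around the higher Ghsr probe the shares were 2.81% and 0.40%, and around the lower one 39.9% and 3.41%. Lepr lay just inside the middle 80%, at 10.3% of the numbering, and 2.40% of its neighbours were as high on the no-stimulus array. Mc4r and Npy2r lay well inside, and around each, 5 and 4 probes of 500 were as low on that array. The part of probe position in these ratios was not tested.

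**Figure D2:**
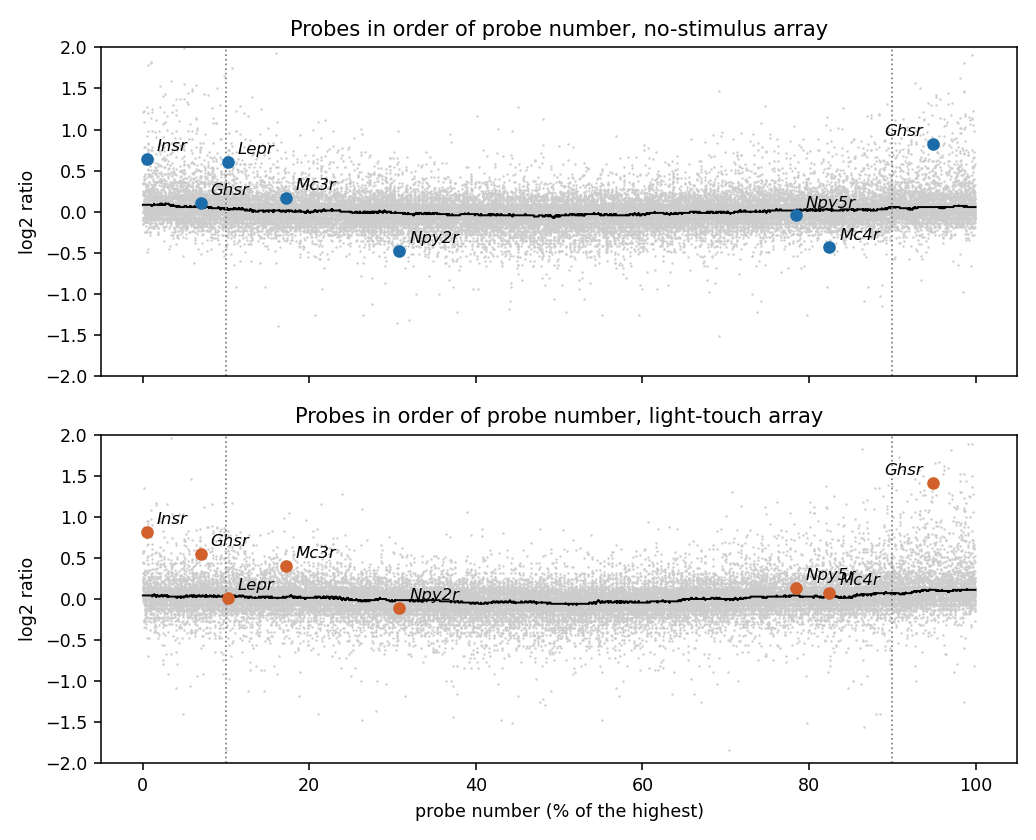
Log2 ratio of every measured probe (grey) against its probe number as a percentage of the highest, with the median over 500 neighbouring probes as a black line, receptor probes in colour and dotted lines at the limits of the outermost 10% at each end; a few probes beyond 2 log2 units are not drawn. The Insr and Ghsr probes sit in the outer zones and the Mc4r, Npy2r, Npy5r and Mc3r probes in the middle.

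Set against each other, the 2 arrays give an indirect ratio of light touch over no stimulus, which holds only if both carried the same tickled RNA and tickled was the numerator. With the opposite numerator the quotient is no stimulus over light touch, with 0.66 for Lepr, 1.43 for Ghsr and 1.42 for Mc4r, and 6 of the 7 receptors lie above 1. For Lepr this ratio was 1.505, from 1.52 against no stimulus and 1.01 against light touch. For Ghsr and Mc4r it was 0.70, from 1.38 and 1.97 for Ghsr and 0.74 and 1.05 for Mc4r. Npy2r had 0.77, Mc3r 0.85, Npy5r 0.88 and Insr 0.89. Below 1 lay 6 of the 7 receptors, where 48.4% of all genes did, and Lepr was the exception. Lepr alone was past 1.5-fold, as were 1.62% of genes upward and 0.711% downward, but rounding of the deposited ratios allows 1.49 to 1.52 for it. In log2 units the difference was 0.59 for Lepr, -0.51 for Ghsr and -0.50 for Mc4r, beside an SD of 0.23 over all genes. The spread of probes gives 0.25, but only if a probe's deviations on the 2 arrays are independent. The same probe is read on both arrays, so 0.25 may be too large. The 2 Ghsr probes, 0.71 and 0.87 apart on the arrays, gave differences of -0.43 and -0.59. Differences for Mc3r, Npy5r and Insr ran from -0.24 to -0.17. That of Mc3r was about the size of the SD over all genes, and those of Npy5r and Insr were smaller. With the local median subtracted, the Lepr difference stayed at 0.59.

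Marker genes of the regions where these receptors are made also differed between the arrays. Of the arcuate and ventromedial markers, 8 of 11 had a ratio above 1 on the no-stimulus array (median 1.14, range 0.79 to 1.62) and 9 of 10 on the light-touch array (median 1.58, range 0.84 to 2.13). Their indirect ratio was below 1 for 9 of 10, with a median of 0.74, beside 6 of 7 receptors. Their lowest gene by the mean of both arrays was Tac3, with 0.97 and 0.84. Thalamic, habenular and cortical markers ran from 0.71 to 3.99 on the no-stimulus array, with 10 of 12 above 1, and from 0.18 to 1.03 on the light-touch array, with 10 of 12 below 1. Calb2 was highest of these by the mean of both arrays, at 1.16 and 1.01, and Neurod1 lowest, at 1.05 and 0.21. This mean evens out opposite ratios on the 2 arrays. The indirect ratio of these markers was above 1 for 10 of 12, with a median of 3.04. The part of regional makeup in the receptor ratios was not tested.

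The choroid plexus, which carries short forms of Lepr, and the pituitary, which carries Ghsr, were examined in the same way. Choroid plexus markers were above 1 in 4 of 11 cases on the no-stimulus array (range 0.08 for Ttr to 1.21 for Igf2) and in 4 of 9 on the light-touch array (0.39 to 1.32). Pituitary markers lay above 1 in 6 of 6 on the no-stimulus array, from 1.10 for Ghrhr to 9.08 for Tshb, and in 5 of 6 on the light-touch array, from 0.83 to 1.42. Ependymal and tanycyte markers, from the lining of the third ventricle beside the arcuate nucleus, were above 1 in 8 of 9 and 9 of 9, and by the mean of both arrays Rax was highest, at 1.52 and 1.67, and Dio2 lowest, at 0.94 and 1.03. Meningeal and vessel markers were above 1 in 11 of 12 and 5 of 12, and by the same mean Aldh1a2 was highest, at 1.24 and 1.65, and Pecam1 lowest, at 0.98 and 0.89. The highest and lowest genes named for the next lists are by the same mean. For astrocytes and microglia it was 9 of 10 on both arrays (Slc1a2 at 1.18 and 1.09, Cx3cr1 at 1.01 and 1). Oligodendrocyte markers had 6 of 8 and 0 of 8 above 1 (Opalin at 1.20 and 0.98, Mag at 0.99 and 0.86), and neuron markers 4 of 10 and 2 of 10 (Rbfox3 at 0.95 and 1.08, Nefh at 1.01 and 0.77). Blood markers had 2 of 6 above 1 on both arrays (S100a9 at 1.20 and 1.35, Hba-a3 at 0.53 and 0.70). Their part in the receptor ratios was not tested either.

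The ligands of the receptors and their precursors were mostly above 1. On the no-stimulus array 9 of 11 measured ligand genes lay above 1, beside 51.8% of all genes, with a median of 0.40 log2 units. The light-touch array had 9 of 9 above 1, beside 51.3% of all genes, with a median of 0.64. Pomc, Agrp, Npy and Cartpt are also among the arcuate and ventromedial markers above, so the 2 lists share their values. Past 1.5-fold on one array or both were Pomc, at 1.62 and 2.13, Agrp, at 1.35 and 1.80, Npy, at 1.14 and 1.59, and Cartpt, which encodes a peptide made with Pomc in the arcuate nucleus, at 1.32 and 1.94. Ins2, an insulin gene, had 1.86 and 1.56, and the other insulin gene, Ins1, the lowest ratios by the mean of both arrays, at 0.96 and 1.11. Ins1 and Ins2 are close copies, so their probes may not separate them. The Ins2 and Npy probes also lay in the outermost 20% of probe numbers, where high ratios were common. Those of Ins1, Pomc, Agrp and Cartpt lay in the middle 80%. The part of probe position in the ligand ratios was not tested.

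**Figure D3:**
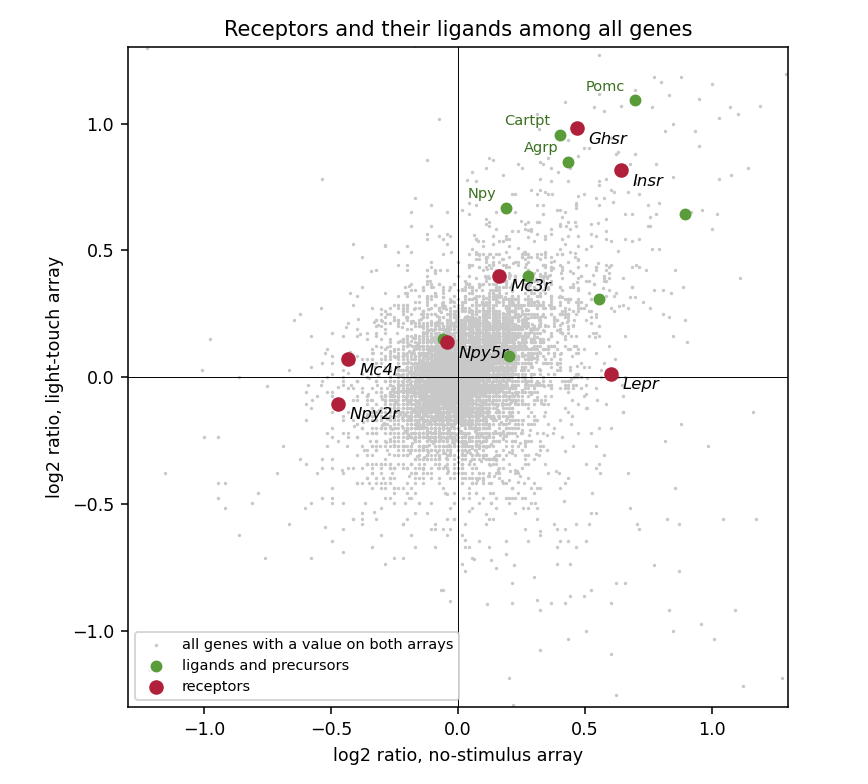
Log2 ratio on the no-stimulus array (horizontal) against that on the light-touch array (vertical) for genes with a value on both, with the 7 receptors in red and 9 ligand genes in green; 29 genes outside the axes are not drawn. Ghsr and Insr lie at the upper right near Agrp, Cartpt and Pomc (Ghsr drawn at the midpoint of its 2 probes), Lepr lies to the right near 0 on the vertical axis, and Mc4r and Npy2r lie to the left.

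Likeness between genes was taken as the distance between their pairs of log2 ratios, over 2 arrays, among 115 pathway genes with a value on both. Since both arrays may share the tickled RNA and there are only 2 values per gene, it is a description of position. Nearest to Ghsr were Cartpt, at a distance of 0.07, and Agrp, at 0.14. This is the midpoint of 2 unlike Ghsr probes, and the probes themselves lay 0.50 and 0.63 from Cartpt and 0.44 and 0.69 from Agrp. The same pair was nearest to Insr, Agrp at 0.21 and Cartpt at 0.28. Nearest to Lepr were Dpp4 (0.18) and the insulin-signalling kinase Akt2 (0.25). Mc4r lay nearest the prolactin receptor Prlr (0.12) and thyrotropin-releasing hormone Trh (0.20). Npy2r lay nearest the potassium channel Kcnj13 (0.07) and Brs3 (0.12), and Mc3r nearest Igf2 (0.11) and Cckbr (0.16). Prlr and Igf2 were also listed as choroid plexus markers. Npy5r had the same ratios as Gprasp1 and was 0.02 from Ins1. Among all genes on both arrays, 1377 lay within 0.1 log2 units of Npy5r and 114 of Mc3r, 24 of Mc4r, 22 of Npy2r, 13 of Lepr, 10 of Insr and 4 of Ghsr.

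Other receptors of the same families did not share the high ratios of Insr and Ghsr. Of 9 such genes listed, 4 were measured, all by probes in the middle 80% of probe numbers. The Insr and Ghsr probes lay in the outermost 20%, where high ratios were common. The part of probe position in this contrast was not tested. The insulin receptor-related receptor Insrr had 0.71 and 0.74 on the no-stimulus and light-touch arrays, and the growth factor receptor Igf1r 1 and 0.83. Npy4r, the pancreatic polypeptide receptor, had 0.84 and 0.73, and a probe annotated as Mlnr, the motilin receptor, had 1.16 and 0.72. Of these 4 genes 1 was above 1 against no stimulus and 0 were against light touch. Their median was -0.13 and -0.44 log2 units.

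Receptors of other feeding signals centred near 1, with medians of -0.01 and 0.08 log2 units over 26 genes on each array. Of these 12 lay above 1 against no stimulus and 17 against light touch. Galr3, a galanin receptor, was highest by the mean of both arrays, at 0.95 and 1.47, and the bombesin-family receptor Brs3 lowest, at 0.78 and 0.90. The 2 genes past 1.5-fold were Ramp3, a partner protein of the calcitonin receptor, at 2.01 and 0.49, and the neuromedin B receptor Nmbr, at 1.52 and 0.47. These lay on opposite sides of 1 on the arrays. Among the 7 receptors so did Mc4r, at 0.74 and 1.05, and Npy5r, at 0.97 and 1.10. Npy5r differed from 1 by less than the probe spread on each array, and so did Mc4r on the light-touch array.

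By the median over their probes, signalling genes inside the cell stayed within 1.5-fold of 1 on both arrays. Single probes of Irs2 (1.66), Ptpn11 (1.72) and Gnai3 (0.60) lay past 1.5-fold on the light-touch array. Each receptor but Ghsr rests on 1 probe, so its value is not evened out in this way. Many signalling genes, among them Jak2, Socs3, Sh2b1, Akt2 and Pik3r1, also rest on 1 probe and stayed within 1.5-fold. The leptin pathway, from the kinase Jak2 to the transcription factor Stat3 and the feedback inhibitor Socs3, had medians of 0.03 and 0.01 log2 units over 11 genes, with 6 above 1 on either array. By the mean of both arrays Socs3 was highest, at 1.15 and 1.17, and the adaptor Sh2b1 lowest, at 0.94 and 0.89. The insulin pathway had medians of 0.02 and -0.04 over 20 genes, with 11 and 6 above 1. By the same mean Akt2 was highest, at 1.28 and 1.01, and the phosphoinositide kinase subunit Pik3r1 lowest, at 0.87 and 0.83. Genes downstream of the melanocortin and Npy receptors had medians of -0.01 and -0.04 over 18 genes, with 6 and 4 above 1. Among them were Gnas, the stimulatory G protein through which Mc3r and Mc4r raise cyclic AMP, at 0.995 and 1.17, and Kcnj13 at 0.73 and 0.89.

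Genes for proteins that process the ligands or carry the receptors were, by the same median over probes, within 1.5-fold of 1 as well. A single Dpp4 probe had 1.56 on the no-stimulus array. Processing enzymes had medians of 0.03 and 0.07 log2 units over 7 genes, with 4 and 5 above 1. By the mean of both arrays Dpp4, a peptidase that trims Npy and peptide YY, was highest, at 1.45 and 1.13, and Mboat4, the enzyme that acylates ghrelin, lowest, at 0.99 and 0.95. Accessory and trafficking proteins had a median of 0.01 on either array over 11 genes, with 6 above 1 on each. By the same mean Arrb1 was highest, at 1.18 and 0.98, and Grb10 lowest, at 0.85 and 1.08. Mrap2, a partner protein of melanocortin receptors, had 0.87 and 1.12. Leprot, the coding gene next to Lepr in the GRCr8 annotation, had 0.99 and 0.98, against 1.52 and 1.01 for Lepr. Energy-sensing genes and genes of target neurons had medians of 0.02 and 0.08 over 12 and 10 genes, with 7 and 8 above 1. By the mean of both arrays Ucp2 was highest, at 1.20 and 1.17, and Trh lowest, at 0.81 and 1.17.

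**Figure D4:**
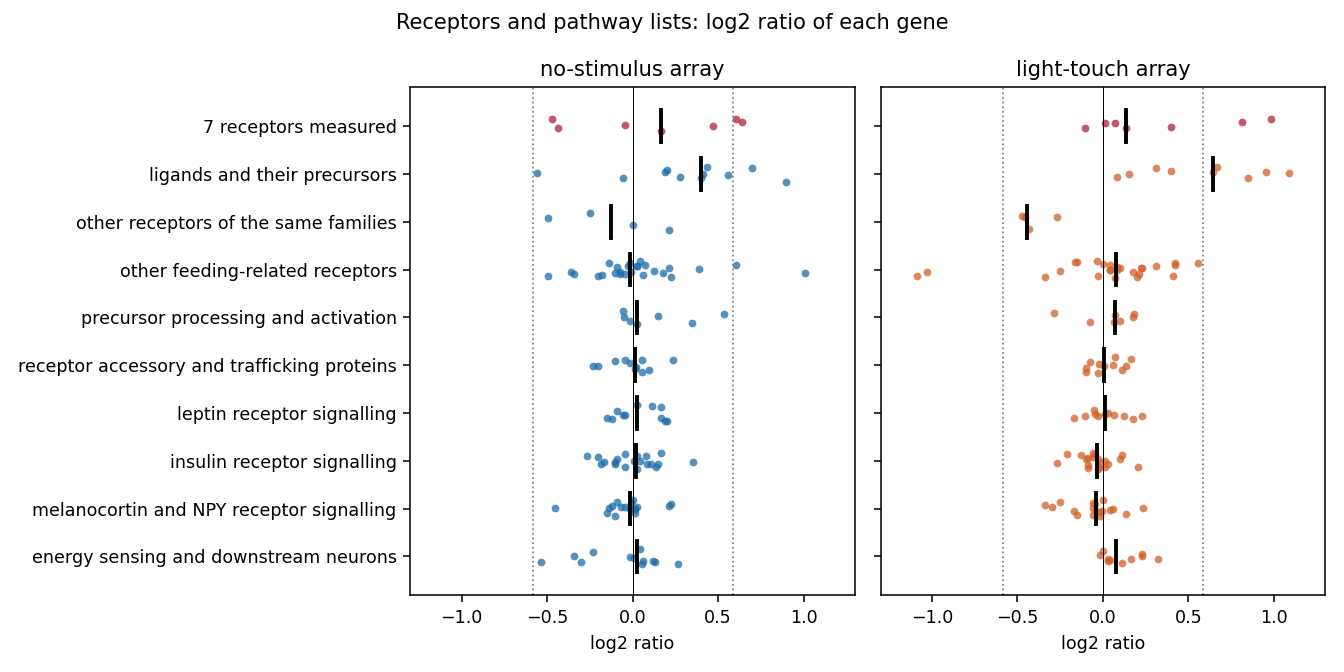
Log2 ratio of each gene (points) and the median (black bars) for the 7 receptors and 9 pathway lists on the no-stimulus array (left) and the light-touch array (right), with dotted lines at 1.5-fold. The signalling, processing and accessory lists lie around 0, while the ligands and some receptors extend to the right.

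The promoter windows of Insr and Ghsr, the receptors with the highest mean over both arrays, and of Npy2r, the one with the lowest, are shown because these genes mark the ends of the range. RefSeq gives 250 bases before and 50 bases after each annotated start on GRCr8. All 8 receptors were matched in it. Capitals mark matches on either strand to 4 short motifs, and no matches overlapped. The first was the GC box, spelled GGGCGG. The second was the TATA box, spelled TATAAA. The third was the box spelled CCAAT. The fourth was the core of the cyclic AMP response element, spelled TGACG.
Insr, GRCr8 chr12:6128754-6129053, minus strand: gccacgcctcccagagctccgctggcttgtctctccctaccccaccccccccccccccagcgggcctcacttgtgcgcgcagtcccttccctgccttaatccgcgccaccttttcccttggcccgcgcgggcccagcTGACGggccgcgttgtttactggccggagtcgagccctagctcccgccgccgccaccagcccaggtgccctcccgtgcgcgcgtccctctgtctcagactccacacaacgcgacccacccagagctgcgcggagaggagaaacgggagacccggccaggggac
Ghsr, GRCr8 chr2:112196908-112197207, plus strand: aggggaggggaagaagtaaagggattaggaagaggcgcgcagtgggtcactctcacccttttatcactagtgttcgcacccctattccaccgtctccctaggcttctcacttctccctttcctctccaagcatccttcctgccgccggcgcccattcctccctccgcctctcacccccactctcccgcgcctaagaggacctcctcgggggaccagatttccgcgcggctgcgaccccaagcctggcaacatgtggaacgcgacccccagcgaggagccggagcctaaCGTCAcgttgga
Npy2r, GRCr8 chr2:170203051-170203350, minus strand: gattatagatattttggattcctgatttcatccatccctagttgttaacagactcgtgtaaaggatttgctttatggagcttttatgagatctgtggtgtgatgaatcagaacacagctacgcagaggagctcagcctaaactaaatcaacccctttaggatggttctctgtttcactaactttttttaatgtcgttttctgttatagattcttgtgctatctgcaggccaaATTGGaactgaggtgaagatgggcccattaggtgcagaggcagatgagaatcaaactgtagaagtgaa
The Insr and Ghsr windows held 28 and 21 CpG dinucleotides and 71.3% and 62.0% G and C, and the Npy2r window 3 and 40.0%. Over 33469 promoters the medians were 7 CpG and 51.7%. Among the windows not shown, Lepr had 5 CpG and 47.7%, Mc3r 5 and 50.3%, and Mc4r 9 and 55.7%. Npy5r had 9 and 54.3%, and Npy1r, which was not measured, 12 and 49%. Npy1r also held a TGACG match, and Lepr, Mc4r and Npy5r held CCAAT matches. A relation between window composition and ratio was not tested. Insr and Ghsr each held 1 TGACG match, at -113 and 38 bases from the start, as 21.2% of promoters do at least once. Npy2r held 1 CCAAT match, as 37.5% do. In the Ghsr window the bases after the annotated start begin with atg, the letters of a start codon. The Ghsr match after it may therefore lie in coding sequence. The GC box letters, found in 33.1% of promoters, and the TATA box letters, found in 14.2%, were not in the 3 windows shown. A match is a string of letters and does not show that a factor binds there.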

How the data were processed

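Hypothalamic RNA was compared on 2 dual-colour arrays, 1 per comparison. The values deposited by the authors were linear ratios, 1 per probe and array, to 2 decimals and already centred, with a median ratio of 1.00. Image analysis, background correction, normalization, the numerator channel and the rule behind empty probes (30.2% and 32.0%) are not given in the labels or the file. Of 44290 probes, 23535 had 1 gene symbol in the platform annotation, 48 several and 20707 none there. Symbols were updated through Entrez identifiers, of which 23488 were found in the RefSeq table of GRCr8, and 1 changed. From these, log2 ratios were computed and the median over a gene's probes taken (Python 3.11.15, numpy 2.4.6, pandas 2.3.3). The local median covered 500 measured probes in order of probe number. The computation was tested on simulated data. The members and lists were chosen with earlier results of these data known. Named were all members, in each list the genes with the highest and lowest mean log2 ratio over both arrays, pathway genes past 1.5-fold, and the 2 pathway genes nearest each member; Mrap2, Leprot, Igf1r and Npy4r, and the other genes named only as examples, were added after their values were seen. No p-value was computed, since each comparison had 1 array, whose number limits the precision.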

Additional observations from a re-analysis of the deposited data

How the results depend on the processing

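All 14 values of the 7 receptors (2 arrays each) moved by less than the probe spread with the local median subtracted or at either rounding limit. Subtracting the array median, taking the mean over probes or using only probes measured on both arrays could not move them. The median ratio of each array was already 1, each receptor had 1 or 2 measured probes, and all of these had values on both arrays. With only the middle 80% of probe numbers Insr and Ghsr had no value. The other 10 values each rest on 1 probe inside that range, so they could not change. That setting left 2 receptors above 1 on the no-stimulus array, a median of -0.0439 log2 units, and 1 receptor (Lepr) at 1.5 or more there and 0 on the light-touch array. It left 119 and 101 genes at 1.5 or more on the no-stimulus and light-touch arrays, and 12 and 14 at 2 or more. With the local median subtracted, 0 receptors and 168 genes (192 as deposited) were at 1.5 or more on the no-stimulus array, 2 receptors (Npy2r and Lepr) were below 1 on the light-touch array, and 27 genes were at 2 or more on the light-touch array. The Ghsr log2 ratio by each probe alone was 0.11 and 0.82 on the no-stimulus array and 0.55 and 1.42 on the light-touch array. The rounding limits of the indirect ratio, added after the data were seen, took Lepr below 1.5-fold, to 1.49. No paired analysis was possible because each comparison had 1 array and no result comes from a test. Without replicate arrays or signal levels, no setting shows how the values vary between animals or with brightness.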
